A study of Macaca mulatta with 2 samples.

Results

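The TRBV7-3+ cytotoxic T cells were 260 of the 7601 kept cells from the blood of 1 rhesus monkey, or 3.42% (exact 95% binomial interval 3.02 to 3.85). They came from a bead sort for double-positive (DP, CD4+CD8+) T cells, and double-positive is here the name of the sort. Of the chosen cells 16.9% exceeded the CD8 tag background described below, against 50.5% of all kept cells. They were chosen on their own RNA counts. Each held at least 1 unique molecular identifier (UMI, 1 counted RNA molecule) of *TRBV7-3*, a T cell receptor beta variable segment, and at least 3 of *GZMB*, which encodes granzyme B. None held a UMI of the alpha segments *TRAV12-2* or *TRAV19*. They were compared with the 2550 kept cells that had 3 or more *GZMB* UMIs and no *TRBV7-3* UMI. Among these compared cells, 327 held *TRAV12-2* alone, 495 *TRAV19* alone, 1710 neither segment and 18 both.

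The animal was untreated and 6 years old. The sort was magnetic, a CD4 step on releasable beads and then a CD8 step, and it started from unfrozen blood mononuclear cells. All cells therefore share 1 donor, 1 sort and 1 preparation, and the 2 libraries (5′ RNA, and CD4 and CD8 antibody tags) read the same 7923 barcodes. With 1 animal no test between conditions is possible, and cells are not replicates. The 260 cells held 893850 gene UMIs (median 3018.5 per cell, 1210.5 genes), and the compared cells held 9927574 (median 3327.5, 1303 genes). Levels are CPM, the counts of a gene summed over a group and scaled to 1000000 UMIs, log2 ratios are of those CPM values, and the intervals beside both cover counting error only.

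A mature alpha beta T cell carries a receptor made of 1 alpha and 1 beta chain, and the daughters of a dividing cell inherit the same pair. Cytotoxic T cells store granzymes, perforin and granulysin in granules and release them at a target cell. Repeatedly stimulated cytotoxic cells often gain receptors first described on NK cells, among them CD94, the product of *KLRD1*, which pairs with NKG2 chains to read the MHC class I molecule E. CD8 can be displayed as an alpha beta pair or as an alpha alpha pair.

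The beta segment was well above the minimum in most of the chosen cells. *TRBV7-3* gave 1 UMI in the lowest cell, 6 in the median cell and 23 in the highest, with quartiles of 5 and 9. Only 12 cells rested on 1 UMI, and 233 had 3 or more. *GZMB* gave 3, 15.5 and 56 UMIs in the lowest, median and highest cell, and 3, 11 and 147 in the compared cells. Both genes chose the cells, so these values describe the choice. Of all 317 kept cells with a *TRBV7-3* UMI, 269 had 3 or more of *GZMB*, and 9 of those were left out for a *TRAV12-2* or *TRAV19* UMI. At the edge, 3 chosen cells had exactly 3 *GZMB* UMIs, with a median of 2 *TRBV7-3* UMIs. Just outside it, 10 cells without those alpha segments had 1 to 2 *GZMB* UMIs, with a median of 1.5 of *TRBV7-3*. No *TRBV7-3* UMI was found in 86 cells with B cell genes and no *CD3* UMI, whose median depth was 4137.5 UMIs. Of these B gene cells, 2 had 3 or more *GZMB* UMIs and so are among the 2550 compared cells, including the cell with 147. That count of 0 allows a share of up to 3.49% of such cells with a UMI, taken as 3 counts over the number of cells. Reads of near-identical TRBV7 copies can be split between genes by the counting, so the segment's identity is uncertain to that extent. *TRBV7-2* had 2 UMIs in the 260 cells.

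**Figure D1:**
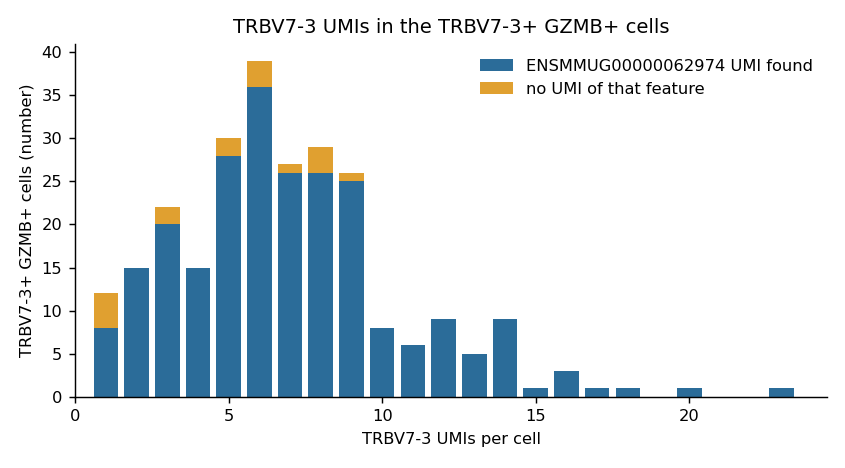
Number of TRBV7-3+ GZMB+ cells (vertical axis) by their *TRBV7-3* UMI count (horizontal axis), with bars split by whether the feature ENSMMUG00000062974 had a UMI. Of the 260 cells, 244 held that feature, including 23 of the 27 cells with 1 or 2 *TRBV7-3* UMIs.

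The feature furthest above the compared cells was one without a symbol, ENSMMUG00000062974, which the deposited gene list places between *TRAV12-2* and *TRAV8-3*. It had no UMI in 16 of the 260 cells, 3 in the median cell and 10 in the highest. The 244 cells that held it were 93.8% of the group, against 150 of the compared cells, or 5.88%. Its level was 842 CPM (783 to 905) against 40.1 CPM, a log2 ratio of 4.39 (4.22 to 4.57). Among the compared cells it was found in 0 of the 327 with *TRAV12-2*, which allows up to 0.917%, in 4.65% of those with *TRAV19* and in 7.43% of those with neither. After all cells were thinned to 2000 UMIs the shares were 84.6% and 4.60%.

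Among cells with *TRBV7-3*, the feature was found in a lower share of those below the *GZMB* minimum. It was present in 94.8% of the chosen cells with 3 or more *TRBV7-3* UMIs and in 85.2% of those with 1 or 2. The latter were only 27 cells, with a median of 2784 UMIs against 3031, and that difference was not tested. Of the 48 *TRBV7-3*+ cells below the *GZMB* minimum, 8 held it, or 16.7%. In cells below that minimum and without *TRBV7-3* the share was 5.49%, and in the B gene cells it was 0 of 86. Named alpha segments were rare. A UMI of any of the 25 named TRAV segments was found in 17 of the 260 cells (6.54%, 3.85 to 10.3), against 60.9% (59.0 to 62.8) of the compared cells, and only 2 of those 17 cells lacked the unnamed feature. The named alpha segment seen in most chosen cells, *TRAV34*, was in 3 of them (1.15%, 0.239 to 3.33), against 0.784% of the compared cells. The choice bars *TRAV12-2* and *TRAV19* from one group and not from the other, so it sets part of the difference in named alpha segments. Of the 1554 compared cells with a named alpha segment, 327 held *TRAV12-2* without *TRAV19*, 495 *TRAV19* without *TRAV12-2*, and 18 both. *TRAC*, the alpha constant segment, was in 63.5% and 67.3% of the cells. Whether the 260 cells descend from 1 cell was not tested, since no assembled receptor sequences were used.

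Other beta segments were at low levels in the chosen cells. A UMI of any of the 20 other named TRBV segments was found in 27 cells (10.4%, 6.96 to 14.7), against 38.9% (37.0 to 40.8) of the compared cells. Those 27 cells had a median of 6184 UMIs, and no doublet caller was run. *TRBV10-1* had 0 UMIs against 48.0 CPM, *TRBV7-2* stood at 2.24 against 50.1 CPM, and *TRBV27* at 29.1 against 178 CPM. All 26 *TRBV27* UMIs came from 5 cells. Cells chosen on 1 beta segment would be low in others by the choice itself, so nothing is read from these values.

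With 10 CPM added to both levels, *KLRD1* was the named gene furthest above the compared cells (chromosome 11, 9390401 to 9397427, minus strand, Mmul_10). With 1 CPM added, *MS4A1*, described below, was slightly further (log2 ratio 1.91 against 1.90). *KLRD1* was one of the marker genes by which the group was proposed, so its level is a description. *KLRD1* gave 0 UMIs in the lowest cell, 2 in the median cell and 9 in the highest, and 42 of the 260 cells had none. In the compared cells the median was 0, and 1753 of the 2550 cells had none. The level was 576 CPM (527 to 628) against 154 CPM (146 to 162), a log2 ratio of 1.90 (1.76 to 2.05). A UMI was found in 83.8% of the chosen cells (78.8 to 88.1) and in 31.3% of the compared cells (29.5 to 33.1), and no B gene cell of 86 held one. At a depth of 2000 UMIs per cell the shares were 71.5% and 21.6%.

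The distance depended on which cytotoxic cells were set beside them. *KLRD1* stood at 276 CPM in the *TRAV12-2*+ cells, 77.0 CPM in the *TRAV19*+ cells and 153 CPM in the cells with neither segment. The log2 ratios of the TRBV7-3+ cells to these were 1.06 (0.86 to 1.26), 2.90 (2.64 to 3.17) and 1.92. The chosen cells were thus nearest to the *TRAV12-2*+ cells, of which 53.2% held *KLRD1*, and furthest from the *TRAV19*+ cells, of which 16.4% did. Within the 260 cells the share varied little, at 84.0% with the unnamed feature, 81.3% of the 16 cells without it, and 81.5% of the cells with 1 or 2 *TRBV7-3* UMIs. Outside the *GZMB* minimum the picture differed, since 1 of the 48 *TRBV7-3*+ cells there held *KLRD1*. Among compared cells, 52.7% of those with the unnamed feature held *KLRD1*, against 29.9% of those without it.

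Over the whole transcriptome, 5416 genes had 50 or more UMIs in the group where they were higher. Of these, 7 were at 2 times or more in the TRBV7-3+ cells on the CPM + 10 scale (0.129%), and 50 were lower by the same factor (0.923%). The 260 cells hold far fewer UMIs than the compared cells, so 50 UMIs correspond to 55.9 CPM in them and to much less in the compared cells. Under 1 minimum of 55.9 CPM for both groups, 2378 genes were left, with 7 higher and 20 lower. The median log2 ratio on the CPM + 10 scale was -0.09 over the 5416 genes and 0.04 over the 2378, so its sign depends on the minimum. List medians below are to be read beside both values. Of the 7 higher genes, 4 have no symbol, and the named ones were *KLRD1*, *ADGRG1* and *MS4A1*. Among the 50 lower genes were 19 named receptor segments, 15 features without a symbol and 16 other named genes.

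**Figure D2:**
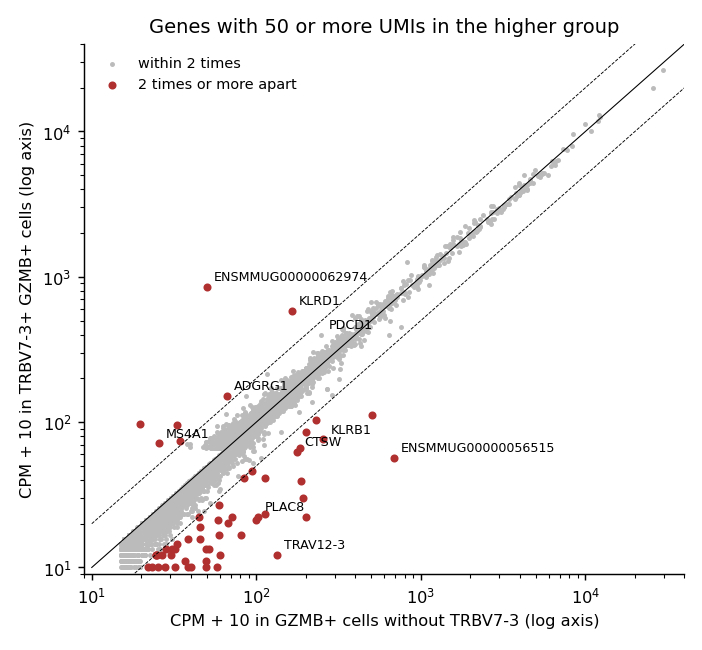
CPM + 10 of each of the 5416 genes in the 2550 GZMB+ cells without TRBV7-3 (horizontal, log axis) and in the 260 TRBV7-3+ cells (vertical, log axis), with dashed lines at 2 times. Most genes lie along the diagonal, and the 7 genes above the upper line are led by ENSMMUG00000062974 at 842 CPM and *KLRD1* at 576 CPM.

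Several of the 7 higher genes rest on few cells. *MS4A1*, which encodes the B cell protein CD20, had 55 UMIs in 6 of the 260 cells, and 98.2% of them came from 5 cells. A pair of the unnamed higher features had their UMIs in 1 chosen cell each. That leaves *KLRD1*, *ADGRG1*, ENSMMUG00000062974 and ENSMMUG00000055302 as genes spread over many cells. The last had UMIs in 53 chosen cells, at 63.8 CPM against 24.4 CPM, a log2 ratio of 1.39 (0.94 to 1.81).

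Of the 21 NK receptors and adaptors listed, 16 were found among the features and 9 were tested. Of those, 1 was higher (*KLRD1*) and 1 lower (*KLRB1*). No level of the NKG2 chains that pair with the product of *KLRD1* is given here. The median log2 ratio was 0.18 on the CPM + 10 scale, or 0.23 over the 7 left under 1 minimum of 55.9 CPM. *KLRB1* (chromosome 11, 10090828 to 10103486, plus strand) encodes CD161, a lectin-like receptor common on innate-like T cells. It stood at 66.0 CPM (50.2 to 85.1) against 245 CPM, a log2 ratio of -1.89 (-2.29 to -1.52), and was found in 13.1% of the chosen cells against 37.9%. It was at 107 CPM in the *TRAV12-2*+ cells, 205 CPM in the *TRAV19*+ cells and 285 CPM in the cells with neither. *KLRD1* and *KLRB1* therefore lay on opposite sides of the compared cells. *NKG2D*, an activating receptor, was at 139 against 113 CPM (log2 ratio 0.30, 0.02 to 0.57), and its adaptor *HCST* at 1880 against 1560 CPM (0.27). For *KLRG1*, an inhibitory receptor of differentiated cells, the log2 ratio was 0.26 (-0.05 to 0.55), and for *KLRF1* it was 0.19 (-0.05 to 0.42). Both of those intervals include 0. *FCGR3*, *NCR1*, *CD244*, *CD160*, *FCER1G* and *KIR2DL4* had no UMI in the 260 cells.

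Of the 19 homing and adhesion genes tested, *ADGRG1* was higher and none was lower. The median was -0.10, and 0.15 over the 10 genes left under 1 minimum of 55.9 CPM. The other 9 genes, *CXCR3* among them, passed the minimum only through the compared cells, where they are higher. *ADGRG1* (chromosome 20, 44855566 to 44904737, plus strand) encodes GPR56, an adhesion receptor of cytotoxic lymphocytes. It was at 142 CPM (118 to 169) against 56.2 CPM, a log2 ratio of 1.34 (1.05 to 1.62), and in 35.0% of cells against 17.5%. Among the compared cells it was highest in those with *TRAV12-2*, as *KLRD1* was, with 90.3 CPM in *TRAV12-2*+ cells, 57.1 CPM in *TRAV19*+ cells and 49.4 CPM in the rest. *CX3CR1*, the fractalkine receptor of circulating effector cells, was at 179 against 167 CPM, with an interval of the log2 ratio from -0.14 to 0.34. *S1PR1*, which guides cells out of lymphoid tissue, was at 107 against 171 CPM (-0.67, -0.98 to -0.38), and *CXCR3* at 26.9 against 46.6 CPM (-0.80, -1.45 to -0.21).

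The granule genes lay on both sides of the level in other *GZMB*+ cells. Of 9 tested, none was higher and 1 lower at 2 times, 5 lay above 0 and 4 below on the CPM + 10 scale (-1.49 to 0.28), and the median was 0.04. *NKG7*, a granule membrane protein, was at 2232 against 1841 CPM (log2 ratio 0.28, 0.21 to 0.34). *PRF1*, which encodes perforin, was at 175 against 155 CPM (0.18, -0.07 to 0.41), and *CST7*, a cathepsin inhibitor, at 1166 against 1034 CPM (0.17, 0.08 to 0.26). *GNLY*, which encodes granulysin, was at 385 against 629 CPM (-0.71, -0.87 to -0.55), and it reached 1003 CPM in the *TRAV12-2*+ cells. *CTSW*, a cysteine protease of cytotoxic cells, was the lower one, at 52.6 CPM (38.6 to 69.9) against 166 CPM, a log2 ratio of -1.66 (-2.11 to -1.24). It was at 244 CPM in *TRAV12-2*+ cells and 92.4 CPM in *TRAV19*+ cells. *GZMK*, a granzyme of memory cells, was at 143 against 278 CPM. However, 5 of the chosen cells held 47.7% of its UMIs, and the *TRAV12-2*+ and *TRAV19*+ cells, at 110 and 133 CPM, were as low. *GZMA* had no UMI in the 260 cells and 38 in all kept cells, so it cannot be read in these data.

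**Figure D3:**
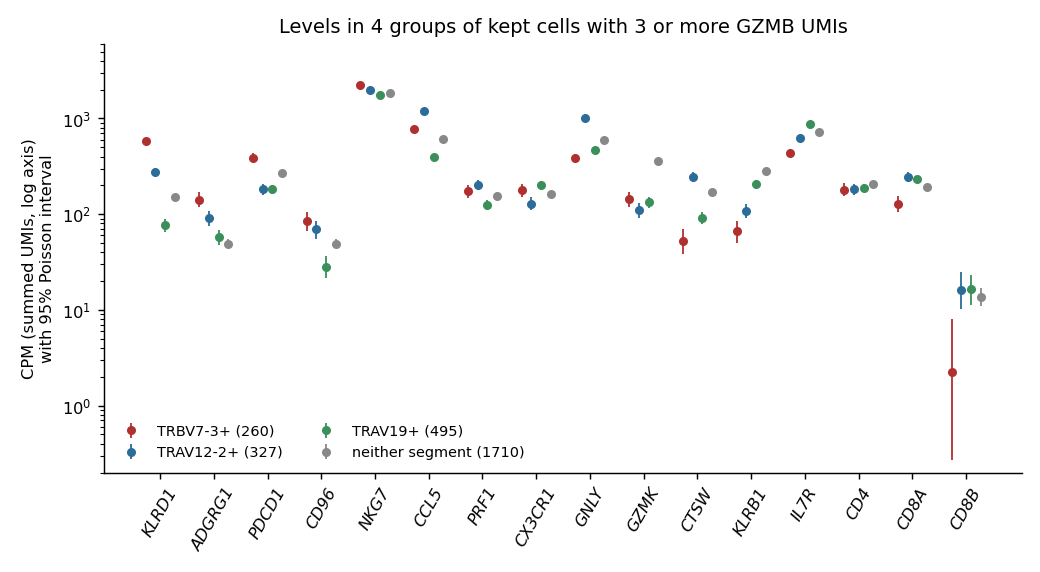
CPM (vertical, log axis) of 16 genes in TRBV7-3+ cells and in the *TRAV12-2*+, *TRAV19*+ and neither-segment compared cells, with cell numbers in brackets. Points are summed levels and bars 95% Poisson intervals; *KLRD1* and *ADGRG1* are highest in the TRBV7-3+ cells, and *CTSW*, *KLRB1* and *CD8B* are lowest there.

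None of 6 chemokine and cytokine genes and none of 15 effector transcription factors passed 2 times, with medians of 0.01 and 0.04. Under 1 minimum of 55.9 CPM, the medians were 0.20 over the 4 and 0.07 over the 12 genes left. *CCL5*, a chemokine stored by effector cells, was at 782 against 643 CPM (0.28, 0.17 to 0.40) and in 76.2% of cells against 58.2%. It too ranged widely among the compared cells, from 400 CPM with *TRAV19* to 1189 CPM with *TRAV12-2*. *LTB*, which encodes lymphotoxin beta, was at 189 against 310 CPM (-0.71, -0.94 to -0.49). Among the transcription factors, *TBX21* (T-bet) was at 71.6 against 59.0 CPM (0.28, -0.12 to 0.65) and *ZEB2*, a repressor of terminal effector cells, at 256 against 202 CPM (0.34, 0.14 to 0.54). *ID2* and *RUNX3* differed by a log2 ratio of 0.00 and -0.01. *EOMES* had 6 UMIs.

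Of the naive and memory genes, 10 were tested, with a median log2 ratio of -0.58, and *CD7* was past 2 times. However, 9 of the 10 passed the minimum only through the compared cells, where they are higher, so that median follows in part from the minimum. Under 1 minimum of 55.9 CPM, *IL7R* and *CD7* were left. The summed level of the list was 599 against 1054 CPM, a log2 ratio of -0.82 (-0.94 to -0.69). *IL7R*, the interleukin 7 receptor of long-lived cells, made up most of that sum. It was at 439 against 747 CPM (-0.77, -0.92 to -0.62) and in 61.2% of cells against 74.0%. *CD7*, an early T cell surface protein, was at 35.8 against 84.0 CPM (-1.23, -1.79 to -0.72), and *SATB1*, a chromatin organiser of naive cells, at 17.9 against 42.0 CPM (-1.23, -2.05 to -0.51). *LEF1*, *TCF7* and *CCR7* had between 15 and 20 UMIs each in the 260 cells, and their intervals include 0. The size of the *CD7* difference depended on the 27 cells with another named beta segment. On the CPM + 10 scale it was -1.04 with them and -2.16, lower still, without them. It was within 2 times at a pseudocount of 50 CPM (-0.64) and in cells thinned to 2000 UMIs (-0.76). The same held, narrowly, with a mitochondrial limit of 10% (-0.974) and against compared cells without *TRAV12-2* or *TRAV19* UMIs (-0.999). Over the 5416 genes 25.8% lay above 0 on the CPM + 10 scale, a share that the unequal minimum lowers.

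Of the 15 genes with the largest ratios upward, *GDE1*, *CYRIA*, *LTBP4*, *CMA1*, *NISCH* and *DBNDD2* were in no list, and all were within 2 times on the CPM + 10 scale (0.76 to 0.90). *GDE1* was at 206 against 106 CPM. Further lower genes also lay outside the lists. On the CPM + 10 scale, ENSMMUG00000056515 and ENSMMUG00000049629, which have no symbol, stood at -3.59 and -3.16, further down than *PLAC8* at -2.19. Against compared cells without *TRAV12-2* or *TRAV19* UMIs these 2 features were at -2.68 and -2.78. *PLAC8* was at 12.3 against 92.0 CPM (-2.90, -3.91 to -2.06), with UMIs in 6 of the 260 cells. *IFI27*, an interferon-induced gene, was at 55.9 against 175 CPM (-1.64, -2.08 to -1.24). *ITM2A* and *SAMHD1*, a nucleotide hydrolase, were named after their values were seen. They were at 75.0 against 191 CPM and at 92.9 against 222 CPM, and the lowest of the compared subgroups were at 166 and 177 CPM.

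Among 4 checkpoint receptors none passed 2 times. The median was 0.33, or 0.69 over the 3 left under 1 minimum of 55.9 CPM (*TIGIT*, *CD96* and *PDCD1*). *PDCD1*, which encodes PD-1, was at 390 CPM (351 to 434) against 239 CPM, a log2 ratio of 0.71 (0.54 to 0.87), and in 66.9% of cells against 53.3%. It was at 181 CPM in *TRAV12-2*+ cells, 183 CPM in *TRAV19*+ cells and 270 CPM in the rest. *CD96*, an adhesion receptor with inhibitory function, was at 83.9 against 47.6 CPM (0.82, 0.45 to 1.17). *TIGIT*, an inhibitory receptor that shares a ligand with CD96, was at 75.0 against 77.1 CPM. *LAG3*, an inhibitory receptor for MHC class II, had 3 UMIs in the 260 cells, at 3.36 against 9.27 CPM (-1.47, -3.77 to 0.13). No gene passed 2 times in the remaining lists. These were 13 T cell receptor signalling genes (median 0.09), 12 immediate early genes (-0.05, or 0.02 over the 11 left under 1 minimum), 6 cell cycle genes (-0.38, or -0.32 over 2) and 14 cytoskeleton, S100 and annexin features (0.15, or 0.17 over 12). However, 5 of the 6 cell cycle genes passed the minimum only through the compared cells, where they are higher. Their median follows in part from the minimum. *ANXA1*, which encodes annexin A1, was at 1246 against 820 CPM (0.60, 0.51 to 0.70). *CD3E* was at 1677 against 1493 CPM and in 98.5% of the chosen cells.

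The coreceptors differed mainly on the CD8 side. *CD4* RNA was at 180 against 200 CPM (-0.15, -0.40 to 0.08), and the 6 helper and regulatory genes tested had none past 2 times. Their median was -0.16, or -0.11 over the 4 left under 1 minimum of 55.9 CPM. Of the 6, 3 passed the minimum only through the compared cells, where they are higher. *CD8A* was at 129 CPM (106 to 154) against 208 CPM, a log2 ratio of -0.69 (-0.98 to -0.42), and was found in 26.5% of cells against 44.0%. *CD8B* had 2 UMIs in the 260 cells, at 2.24 against 14.6 CPM (-2.71, -5.77 to -0.83), and it was low in every group. The median of the 3 CD8 lineage genes was -0.65, or -0.33 over *RUNX3* and *CD8A*, the 2 left under 1 minimum of 55.9 CPM. Of the 3, *CD8B* was past 2 times. That call rested on few UMIs. *CD8B* was past 2 times in only 9 of 15 alternatives. Among the others were a pseudocount of 50 CPM (-0.31), thinned cells (-0.77), compared cells without *TRAV12-2* or *TRAV19* UMIs (-0.96) and a *TRBV7-3* minimum of 2 UMIs (-0.99). *CD8B* also fell below the minimum of 55.9 CPM.

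The surface tags were read against 86 B gene cells, which should lack both proteins. The CD4 tag had 54 UMIs in the lowest chosen cell, 298 in the median cell and 3803 in the highest, and the median was 316 in the compared cells and 90 in the B gene cells. Above the B gene cells' 90th percentile, 191 UMIs, lay 92.7% of the chosen cells (88.8 to 95.5) and 90.9% of the compared cells. Above the 99th percentile, 591.35 UMIs, the shares were 10.8% and 11.3%, and 14.0% of all kept cells lay above it. Only 1 of the 86 B gene cells lay above that limit, so few cells set it. The share called CD4+ depended on the limit. The CD8 tag had 19, 200 and 4650 UMIs in the lowest, median and highest chosen cell. Its median was 373.5 in the compared cells, 425 with *TRAV12-2*, 404 with *TRAV19*, 347 with neither and 139.5 in the B gene cells. Above the 90th percentile, 330.5 UMIs, lay 44 of the 260 cells (16.9%, 12.6 to 22.0), against 57.3% (55.4 to 59.3) of the compared cells. Of all kept cells 50.5% lay above it. Of the B gene cells themselves 10.5% (4.90 to 18.9) did, an interval that overlaps that of the chosen cells. Above the 99th percentile the shares were 5.38% and 19.0%. The median CD8 tag of the chosen cells was below that of the *TRAV12-2*+, *TRAV19*+ and neither-segment cells. It was nearer to that of the 57 compared cells with 3 or more UMIs of ENSMMUG00000062974, whose median was 253, with 29.8% (18.4 to 43.4) above the limit and a median ratio of CD8 to CD4 tag UMIs of 0.71. The middle 50 percent of the chosen cells, from 160.75 to 276.25 UMIs, overlapped that of the compared cells, from 239 to 562.75 UMIs. The median ratio of the tags was 0.69 in the chosen cells and 1.15 in all compared cells.

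**Figure D4:**
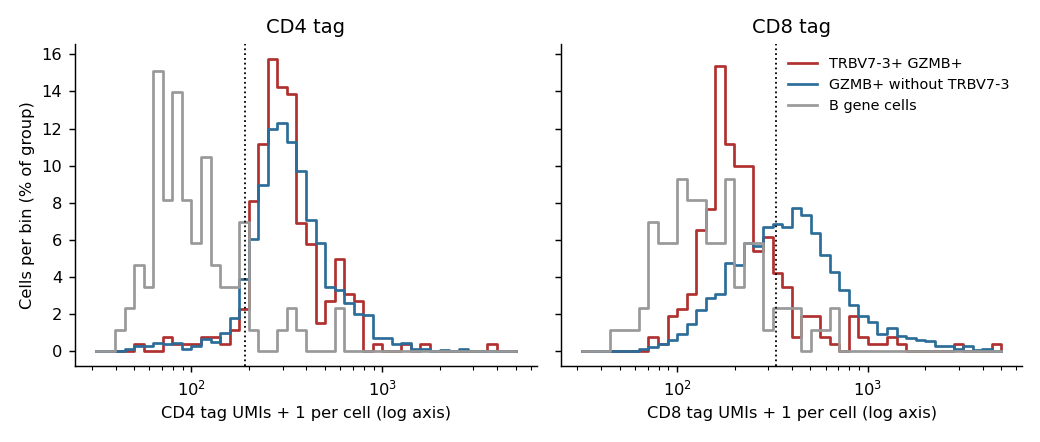
Distribution of CD4 tag (left) and CD8 tag (right) UMIs + 1 per cell (log axis) as percent of each group, for the 260 TRBV7-3+ cells, the 2550 compared cells and 86 B gene cells, with dotted lines at the 90th percentile of the last group. The CD4 curves of both T cell groups lie together (medians 298 and 316), and the CD8 curve of the TRBV7-3+ cells (median 200) lies between those of the B gene cells (139.5) and the compared cells (373.5).

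Tag UMIs were not scaled per cell. Without the 5% of kept cells with most UMIs the CD8 medians were 194 and 361. Without the 27 chosen cells that held another named beta segment, the CD8 median was 193, 12.9% (8.86 to 17.9) were above the CD8 limit and *KLRD1* was at 620 CPM.

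The levels of markers of other cell types were as follows. The 6 B cell genes summed to 111 UMIs in the chosen cells and 566 in the compared cells (124 against 57.0 CPM), *MS4A1* was the most abundant and *CD22* was at 0. Only 5 and 28 cells had 3 or more such UMIs, and without them the CD8 medians were 200 and 371 and *KLRD1* was at 594 against 156 CPM. Without them *MS4A1* had a log2 ratio of 0.04 on the CPM + 10 scale. NK cell genes summed to 296 against 311 CPM, led by *KLRF1*, a gene that cytotoxic T cells can also express. Of the chosen cells 36 had 3 or more such UMIs, with *NCR1*, *FCGR3* and *FCER1G* at 0. Monocyte genes were at 13.4 against 11.3 CPM, led by *CD14*, with *S100A8*, *S100A9* and *VCAN* at 0. Red cell genes were at 124 against 105 CPM, in the chosen cells all *HBA*, with *HBB*, *ALAS2* and *AHSP* at 0. Platelet genes had 2 UMIs, both of *GP9*. Plasmacytoid dendritic cell genes were at 4.48 against 26.6 CPM, led by *IRF8*, with *IL3RA* and *CLEC4C* at 0. The gamma delta list had 1 of its 6 genes in the data, *TRDV3*, with 20 UMIs in 2 chosen cells. It was at 22.4 against 6.35 CPM, a log2 ratio of 1.82 (1.01 to 2.56). A named gamma segment outside the list, *TRGV9*, looked up after the values were seen, lay on the other side, at 4.48 against 14.4 CPM. Innate-like T cell genes were at 79.4 against 284 CPM, of which *KLRB1* gave 59 of 71 UMIs. The part of these cells in the results was not tested beyond the values without cells holding 3 or more B cell UMIs.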

How the data were processed

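The authors ran Cell Ranger 3.1.0, with the STAR aligner (2.5.1b) on Mmul_10, and Seurat 3.1.3. What they deposited are unnormalized UMI counts for each barcode and each gene or tag. Which annotation release was counted is not stated in these sources. The RNA library held 32297887 gene UMIs, and the tag library 3533968 CD4 and 3868998 CD8 UMIs. Kept barcodes (7601 of 7923) had 200 to 4000 genes, and mitochondrial UMIs made up no more than 20%. Mitochondrial UMIs were those of 13 named genes and 2 features without a symbol. Calculations used scipy 1.17.1, numpy 2.4.6, pandas 2.3.3 and matplotlib 3.10.9 under Python 3.11.15.

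UMIs were summed over the cells of a group. Intervals are exact at 95% (Poisson for levels, Clopper-Pearson for shares, binomial for log2 ratios). The limit printed beside a count of 0 is 3 counts over the number of cells, a different rule that gives a smaller value than Clopper-Pearson. A gene was counted as higher or lower at 2 times or more in CPM + 10, with 50 UMIs in the higher group, and the genes of the choice (*TRBV7-3*, *GZMB*, *TRAV12-2*, *TRAV19*) were left out. This rule of size takes the place of a test. Genes were named from the lists and from the 15 with the largest ratio each way, with receptor segments ranked apart and features without a symbol included in the ranking. Some list genes with few UMIs (*LAG3*, *EOMES*, *LEF1*, *TCF7*, *CCR7*, *SATB1*, *CXCR3*) and, outside the lists, *ITM2A*, *SAMHD1* and *TRGV9* were named after their values were seen. B gene cells held 3 or more UMIs of a list of B cell genes (among them *MS4A1*, *CD79A* and *CD79B*; not all of the list is reported here) and none of *CD3E*, *CD3D* or *CD3G*. For shares at equal depth, cells were thinned to 2000 UMIs with seed 1, which left 246 chosen and 2433 compared cells. No doublet caller was run. The calculation was tested on simulated group sums with Poisson counting error and no spread between cells. That test therefore cannot show how the calls behave for genes whose UMIs lie in few cells. Symbols came from the deposited data (23817) and a table of gene names (720), and positions from the RefSeq annotation of Mmul_10. The members and lists were chosen with earlier results of these data known.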

Additional observations from a re-analysis of the deposited data

How the results depend on the processing

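No paired analysis was possible because both libraries read the same cells of 1 animal, so no groups of replicate samples exist to pair. The count of genes at 2 times or more, 7, became 4 with a *GZMB* minimum of 10 UMIs, 3 in cells thinned to 2000 UMIs, 3 with a pseudocount of 50 CPM, 4 without the 5% of kept cells with most UMIs, and 4 without cells with 3 or more UMIs of B cell genes. The count of lower genes, 50, became 271 with a pseudocount of 1 CPM, 13 with 50 CPM, 20 with the same minimum CPM in both groups, and 79 without chosen cells that held another named TRBV segment. The share of kept cells chosen, 3.42%, was 2.74% with a *GZMB* minimum of 10. With the B gene cells' 99th percentile as background, 10.8% of the chosen cells were above the CD4 limit and 5.38% above the CD8 limit, against 92.7% and 16.9%, so the shares depend on where the limit is set. The share of cells with ENSMMUG00000062974, 93.8%, was 84.6% after thinning, which removes UMIs. For the other moves the cause was not tested. The alternatives without cells holding B cell UMIs, without cells with another TRBV segment, with compared cells lacking ENSMMUG00000062974 and with 1 minimum CPM (gene lists included), and the result on ENSMMUG00000062974, were added after seeing the data.

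Over the 15 alternatives that can move a single gene's ratio, *KLRD1* ranged from 1.62 to 1.94 on the log2 scale with the pseudocount and was past 2 times in 15, as were *KLRB1*, *CTSW* and *PLAC8*. *ADGRG1* was past it in 14 (0.85 at a pseudocount of 50 CPM), *CD7* in 11, *CD8B* in 9 and *MS4A1* in 11. *IRF8*, among the lower genes, was past it in 9, and at -0.08 against compared cells with another named TRBV segment. The genes checked this way kept their direction.

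All cells come from 1 animal and 1 sort. Counting error with 260 cells leaves wide intervals for genes under about 50 UMIs, such as *CD8B*, *EOMES* and *LEF1*.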

Other observations

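Among the 322 barcodes removed by the filters, 3 met the *TRBV7-3* and *GZMB* choice (0.932%, 0.193 to 2.70), with mitochondrial shares between 27.2% and 28.9%. Of these, 2 held ENSMMUG00000062974 and 2 held *KLRD1*.

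ENSMMUG00000062974 was found in 667 of the 7601 kept cells (8.78%), so most cells with it lay outside the 260. In the 257 kept cells that held both it and *TRBV7-3*, 249 had 3 or more *GZMB* UMIs (96.9%). Over all 317 kept cells with *TRBV7-3*, which include those 257, the share was 84.9%. Of the *TRBV7-3*+ cells without the feature, 40 were below the *GZMB* minimum and 16 were among the 260. The CD8 tag median of the 257 cells was 196, against 335 in all kept cells. These are values of single cells of 1 animal, described after the feature had been singled out.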
